A study of Mus musculus with 10 samples.

Results

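The dystrophin-glycoprotein complex was examined in heart muscle cells (cardiomyocytes) of mice in which both copies, or a single copy, of Actn2 could be removed by Cre. Its 8 members were taken by name from the deposited count table, which holds 23337 genes: Dmd, Utrn, Dag1, Sgca, Sgcb, Sgcd, Dtna and Sspn. All 8 were found, and all 8 passed the filter on low counts that left 11870 genes for testing. The knockout group consisted of 5 Actn2-FF mice, in which each Actn2 allele is floxed, that is, flanked by sites at which Cre recombines. The heterozygote group consisted of 5 Actn2-F+ mice, with 1 floxed and 1 normal allele, and served as the control. The animals of the 2 groups alike were given AAV9-cTNT-Cre at postnatal day 1, a viral vector whose Cre is driven by a cardiac troponin T promoter, so the controls also carry a floxed copy exposed to Cre, and no group without Cre or without a floxed allele is analysed here. Hearts were digested at postnatal day 14 by perfusion with collagenase, cardiomyocytes were collected by cell sorting, and polyadenylated RNA was sequenced.

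The complex spans the muscle cell membrane (sarcolemma) and ties the actin cytoskeleton inside the cell to laminin outside it. Dystrophin binds actin and the transmembrane part of dystroglycan, whose extracellular part binds laminin through sugar chains. The sarcoglycans and sarcospan brace dystroglycan in the membrane, and dystrobrevin and the syntrophins form a signalling platform on dystrophin. In striated muscle the complex sits at costameres, the sites that align with the Z-line where alpha-actinin crosslinks actin, and loss of its parts underlies muscular dystrophies that also affect the heart.

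Total counts ran from 8086656 to 25237696 per sample. Levels are normalised read counts relative to a sample's total (CPM), scaled with edgeR's TMM factors. Actn2 (chromosome 13, 12269427 to 12340732, mm10) measured 1145 to 1286 CPM in the knockouts and 2677 to 3474 CPM in the heterozygotes (log2 fold change -1.39, SE 0.0910, adjusted p 3.48e-07 in edgeR's quasi-likelihood test), so the groups did not overlap. The 10 cardiomyocyte markers summed to 97410 to 124500 CPM in every sample. Of these, 1 was called higher, Mybpc3 (log2 fold change 0.43, edgeR adjusted p 0.0117). Another 1 was called lower, Tnni3 (-0.53, adjusted p 0.00165), each without overlap between the groups. Of the markers of other cell types, the 10 endothelial genes summed to 713 to 1263 CPM in the heterozygotes and 444.5 to 818 CPM in the knockouts, with 2 called lower and 0 higher. The endothelial sums overlapped, with knockout 4 (818 CPM) above heterozygotes 1, 2 and 5. The 7 immune genes summed to 13.1 to 31.1 CPM and 7.50 to 10.2 CPM, with 1 of 3 tested called lower. Sums of the fibroblast genes (331 to 542.5 against 320 to 651 CPM) and of the smooth muscle and pericyte genes (475 to 700.2 against 542 to 697 CPM) overlapped between the groups, with 0 of 8 and 1 of 8 tested genes called, the latter Cspg4, higher. The second sum mixes directions. Cspg4 averaged 37.0 CPM in the heterozygotes and 132 CPM in the knockouts, and Cnn1 stood higher too (log2 fold change 1.05, not called). Myh11, Kcnj8, Rgs5, Notch3, Pdgfrb and Abcc9 stood lower (-0.65 to -0.26, none called). Abcc9 was the largest part, averaging 388 CPM in the heterozygotes and 324 CPM in the knockouts. The sums of the glial genes (2.66 to 4.45 against 2.93 to 6.17 CPM) overlapped as well. Of the 5 red cell genes, Hba-a1, Hba-a2 and Hbb-b1 had 0 counts in all samples. Hba-a1 and Hba-a2 share 1112 exon bases, Hbb-b1 shares 606 of its 626 with Hbb-b2, and this kind of counting drops shared reads. Their zeros therefore say little about red cells. Alas2 had 1 to 13 counts per sample and Slc4a1 0 to 2. In sorted cells as in other bulk samples, fewer cells of a type and less RNA per cell cannot be told apart.

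Of the 8 members, 2 were higher in the knockout and 0 lower at an adjusted p below 0.05, namely Dag1 and Dmd. Over all tested genes 18.9% were called, 10.2% higher and 8.64% lower, so 2 calls among 8 are near the background. Dmd was the 1 member whose groups did not overlap, against 14.7% of all tested genes, 8.41% with the knockouts above and 6.32% with them below. The median log2 fold change of the members was 0.118, beside 0.00227 over all tested genes. The remaining 6 members, Utrn, Sgca, Sgcb, Sgcd, Dtna and Sspn, had fold changes between 0.837 and 1.16.

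**Figure D1:**
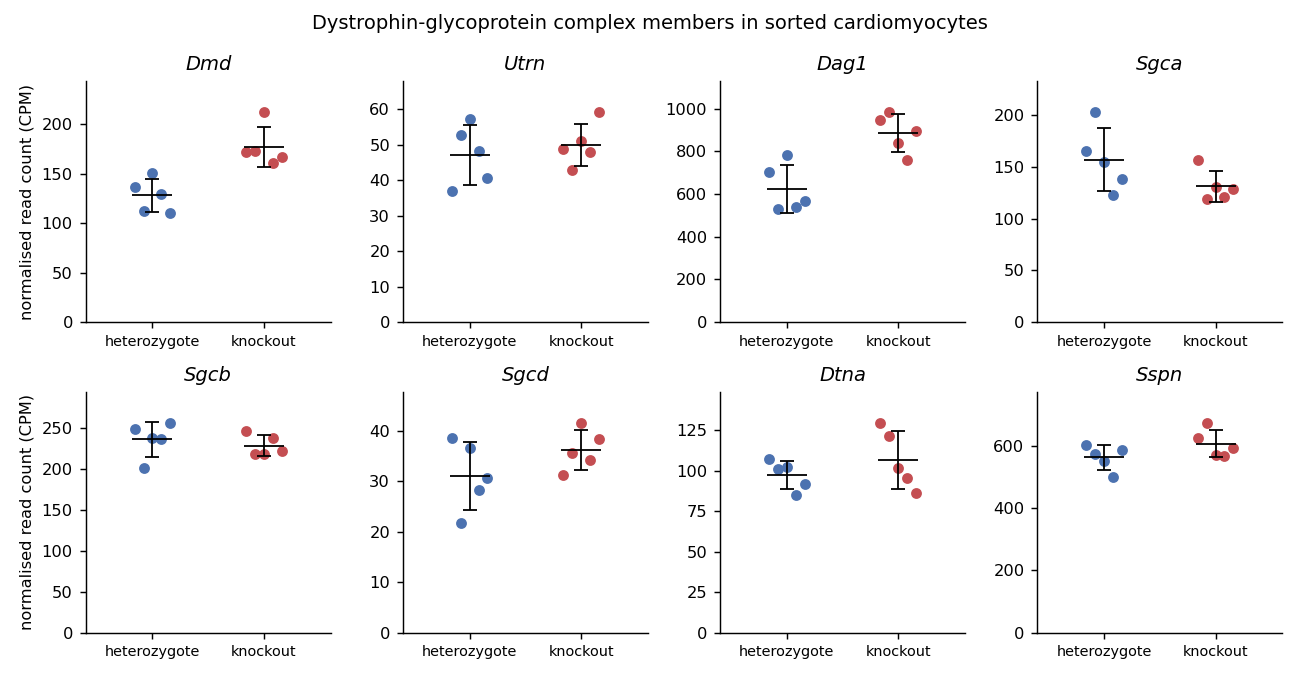
Normalised read count (CPM, linear axis from 0) of each member in each of the 10 mice, with heterozygotes in blue and knockouts in red; bars give the mean and SD of 5 mice. The knockout points of Dmd lie between 161 and 212 CPM, above all heterozygote points, and those of Dag1 lie above all but 1.

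Dmd encodes dystrophin, the rod-like protein that links actin to the membrane complex, and lies on chromosome X at 82948870 to 85205050 on the plus strand, with 79 exon intervals and 13852 bases of exon in the annotation used for counting. It measured 136.5, 113, 151, 129.9 and 110 CPM in heterozygotes 1 to 5. In knockouts 1 to 5 it measured 172, 173, 212, 161 and 167 CPM. The lowest knockout, 161 CPM, lay above the highest heterozygote, 151 CPM. Means were 128 ± 17.1 CPM in the heterozygotes and 177 ± 20.3 CPM in the knockouts (SD, n = 5 each), a 1.38-fold rise (0.47 ± 0.111 SE on the log2 scale, adjusted p 0.00940, edgeR). Among tested genes, 22.4% had a larger absolute change. Omitting any 1 of the 10 animals kept the call (log2 fold changes of 0.39 to 0.53). Dmd is X-linked, and summed Y-linked expression was at most 0.0566 CPM in heterozygotes 3 and 5 and knockout 5 and at least 175 CPM in the other 7. With that expression as a covariate the log2 fold change was 0.46 (adjusted p 0.0157). Counts per gene do not separate the full-length muscle dystrophin from the shorter products of internal promoters.

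The call for Dmd depended on the handling of gene length. Over all tested genes the median log2 fold change climbed from -0.0991 in the shortest of 20 length bins to 0.212 in the longest, which holds Dmd and Utrn. In that longest bin, of 7824 bases and more, 23.7% of 594 genes were called higher and 2.02% lower. With per-sample offsets for length, the log2 fold change of Dmd was 0.25 (SE 0.0921, adjusted p 0.0755) and the call was lost, while that of Dag1 was 0.43 (adjusted p 0.0134). With the mean of the endothelial markers as a covariate Dmd was at 0.49 (SE 0.158, adjusted p 0.0668), a change as large as without it but no longer called.

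**Figure D2:**
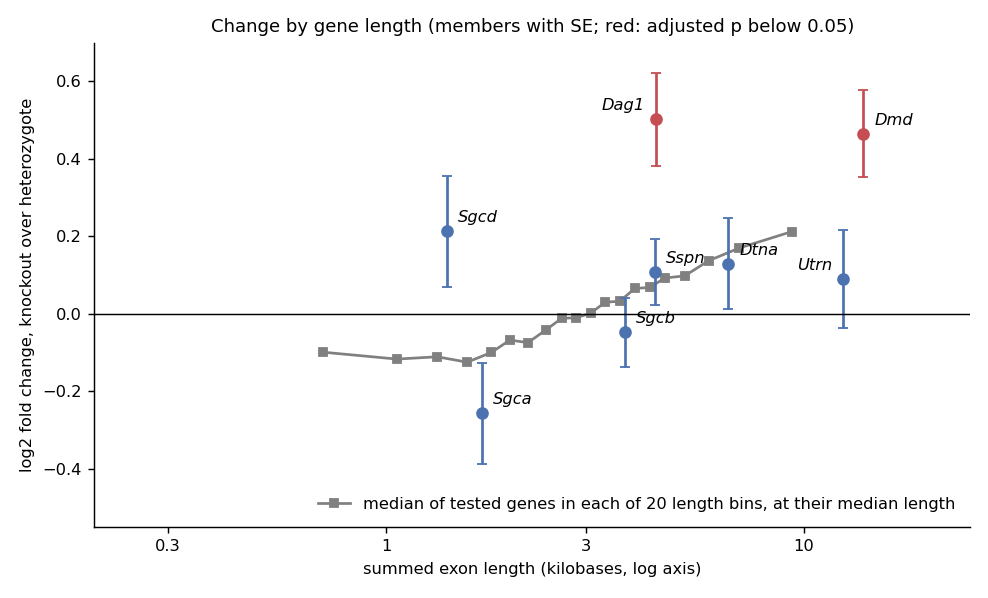
Log2 fold change (knockout over heterozygote) against summed exon length on a log axis. Grey squares give the median of the tested genes in each of 20 length bins and circles the 8 members with their SE, called members in red. The grey line runs from -0.0991 to 0.212, and Dag1 stands farther above it than Dmd does.

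The stretch around the muscle start site of Dmd, chrX:82948620-82948919 (plus strand, RefSeq, GRCm38.p6, the assembly that mm10 names), is shown because Dmd was the member whose groups stood apart. It covers 250 bases before and 50 after the start, and its start coincides with the first base counted for the gene. Promoters of the other called member, Dag1 (chr9:108263766-108264065, minus strand), and of Sgca (chr11:94976278-94976577, minus strand), the member with the lowest log2 fold change, stand beside it for comparison. The Dag1 start lies 79 bases from the first base counted for that gene, and the Sgca start coincides with its own. Capitals mark matches, on either strand, to the CArG box that SRF binds, the MEF2 site, the E-box CANNTG, the MCAT element CATTCC that TEAD factors bind, and the GATA motif AGATAA.
Dmd: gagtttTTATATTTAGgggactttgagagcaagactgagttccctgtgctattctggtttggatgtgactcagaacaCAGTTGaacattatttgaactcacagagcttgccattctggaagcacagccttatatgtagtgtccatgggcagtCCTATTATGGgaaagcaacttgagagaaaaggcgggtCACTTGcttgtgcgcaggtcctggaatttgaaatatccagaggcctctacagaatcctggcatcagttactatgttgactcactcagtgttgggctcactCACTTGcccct
Dag1: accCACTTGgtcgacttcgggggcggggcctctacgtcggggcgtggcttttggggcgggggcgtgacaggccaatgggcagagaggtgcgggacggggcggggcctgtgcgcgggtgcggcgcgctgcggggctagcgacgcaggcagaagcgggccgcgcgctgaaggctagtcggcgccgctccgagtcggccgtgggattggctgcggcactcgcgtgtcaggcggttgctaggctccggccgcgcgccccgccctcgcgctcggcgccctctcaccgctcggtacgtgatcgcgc
Sgca: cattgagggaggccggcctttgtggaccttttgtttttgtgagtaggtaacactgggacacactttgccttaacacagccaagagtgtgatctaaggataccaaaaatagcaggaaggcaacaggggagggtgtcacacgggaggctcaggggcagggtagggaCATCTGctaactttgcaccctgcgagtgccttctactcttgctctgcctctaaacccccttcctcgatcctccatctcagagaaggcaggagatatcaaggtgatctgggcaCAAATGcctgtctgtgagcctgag
The Dmd stretch held 1 CArG box, beginning 98 bases before the start, 1 MEF2 site, beginning 244 bases before it, and 3 E-boxes, none overlapping another. A CArG box was found in 1.63% of 32851 promoters of the same length and a MEF2 site in 3.19%. Of the 7 members with a promoter read from RefSeq, Dmd alone held either of them. The Dag1 stretch is GC-rich (75.3% G or C, against 45.7% for Dmd and 52.7% for Sgca) and held 1 E-box, and the Sgca stretch held 2. E-boxes occurred in 72.3% of all promoters, MCAT elements in 14.7% and GATA motifs in 11.2%. Such matches describe letters only, and binding was not measured.

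Utrn encodes utrophin, the dystrophin paralog that can take its place on dystroglycan and that is abundant before birth (chromosome 10, 12382188 to 12861735, 12382 bases of exon). It measured 37.0, 52.7, 57.3, 48.3 and 40.5 CPM in heterozygotes 1 to 5. The knockouts measured 48.8, 42.9, 51.0, 47.9 and 59.1 CPM, within or near the same range. The log2 fold change was 0.09 (95% interval -0.18 to 0.36, adjusted p 0.682, edgeR), and its sign turned with the length offsets (-0.13). The upper end of that interval lies below the 0.47 fitted for Dmd, but the difference between these genes was not tested. Counted per kilobase of exon, Dmd made up 70.8% ± 3.92 of Dmd plus Utrn in the heterozygotes and 75.9% ± 2.89 in the knockouts (SD, n = 5 each). These shares overlapped, with 76.7% in heterozygote 1 and 71.6% in knockout 5.

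Dag1 encodes dystroglycan, the laminin receptor at the centre of the complex, whose precursor is cut into an extracellular and a transmembrane part (chromosome 9, 108205958 to 108263736, minus strand, 4415 bases of exon). It measured 702, 532, 782, 540.5 and 565 CPM in heterozygotes 1 to 5. In knockouts 1 to 5 it measured 947, 982, 838, 758 and 895 CPM. Heterozygote 3, at 782 CPM, lay above knockout 4, at 758 CPM, so the groups overlapped in that single pair. Knockouts averaged 884 ± 88.9 CPM and heterozygotes 624 ± 112 CPM (SD, n = 5), a 1.42-fold rise (0.50 ± 0.120 SE on the log2 scale, adjusted p 0.00936, edgeR). The call held in all 10 fits without 1 animal, with log2 fold changes of 0.45 to 0.60. It was lost with the endothelial covariate (0.42, SE 0.165, adjusted p 0.140).

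The sarcoglycans form a subcomplex in the membrane, and the members Sgca, Sgcb and Sgcd encode its alpha, beta and delta subunits. None of the 3 was called. Sgca (chromosome 11, 94962822 to 94976327) measured 166, 202.5, 155, 122 and 138 CPM in the heterozygotes and 157, 119, 130.1, 121 and 129 CPM in the knockouts (log2 fold change -0.26, 95% interval -0.54 to 0.02, adjusted p 0.186, edgeR). Heterozygote 2 was the highest sample, and the groups overlapped. Sgcb (chromosome 5, 73632749 to 73647731) measured 249, 200.4, 237, 236 and 255 CPM against 246, 217.5, 218, 237 and 221 CPM. Its log2 fold change was -0.05 (95% interval -0.24 to 0.14, adjusted p 0.759), and the sign turned with scaling by library totals alone (0.03). Sgcd (chromosome 11, 46978783 to 47379302) was the least abundant of them, at 38.6, 21.7, 36.6, 28.3 and 30.6 CPM against 31.3, 35.7, 41.6, 34.3 and 38.4 CPM (log2 fold change 0.21, 95% interval -0.09 to 0.52, adjusted p 0.334).

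Sgce encodes epsilon-sarcoglycan, the counterpart of Sgca outside striated muscle. It was not called (log2 fold change 0.23, 95% interval -0.11 to 0.57, adjusted p 0.337, edgeR). Per kilobase, Sgca made up 92.8% ± 2.24 of Sgca plus Sgce in the heterozygotes and 90.5% ± 1.99 in the knockouts (SD, n = 5 each). Sgcz, the zeta-sarcoglycan gene, had 0 counts in every sample.

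Sspn encodes sarcospan, a small tetraspanin-like protein that stabilises the sarcoglycans (chromosome 6, 145934147 to 145965225). It measured 601, 574, 551, 498 and 585 CPM in the heterozygotes and 624, 672, 571, 568 and 593 CPM in the knockouts. Its log2 fold change of 0.11 had a 95% interval of -0.07 to 0.29 (adjusted p 0.414, edgeR). The upper end lies below the 0.50 fitted for Dag1, but the difference between these genes was not tested. Dtna encodes alpha-dystrobrevin, a dystrophin-related protein that binds dystrophin and the syntrophins (chromosome 18, 23415415 to 23659714). It measured 107, 101, 102, 85.2 and 92.0 CPM in the heterozygotes and 129, 121, 101.5, 95.7 and 86.0 CPM in the knockouts, where the spread was wider. The log2 fold change was 0.13 (95% interval -0.12 to 0.38, adjusted p 0.489) and turned to -0.06 with the length offsets. Its paralog Dtnb stood at 2.90 ± 0.813 and 2.94 ± 1.07 CPM in heterozygotes and knockouts (SD, n = 5).

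Beside the members, 9 further subunits are described, of which 5 were tested, 1 was called higher and 0 lower, with a median log2 fold change of 0.0491. That is 20% of the tested list, near the 18.9% of all tested genes called, of which 10.2% were higher and 8.64% lower. The called gene was Sntg2, which encodes gamma-2-syntrophin, an adaptor of the syntrophin family (chromosome 12, 30174557 to 30373375). It had 6, 2, 2, 2 and 1 raw counts in the heterozygotes, against 35, 98, 41, 31 and 174 in the knockouts. Summed over animals and scaled, the knockout rate was 28.5 times the heterozygote rate (exact Poisson 95% interval 16.4 to 53.9, counting error only, without the spread between animals). In edgeR the adjusted p was 9.55e-06. The heterozygote counts lay below the filter's minimum of 10, so Sntg2 was tested only because its knockout counts were high. Its call is therefore not independent of that filter. The level stayed low, at 5.63 ± 2.91 CPM in the knockouts (SD, n = 5). Sntb1, a beta-syntrophin gene and the most abundant uncalled gene of the list, was at 26.2 ± 5.77 CPM in the knockouts and 26.6 ± 5.43 CPM in the heterozygotes. Per kilobase, Sntb1 was at 12.2 and Sntg2 at 2.41 CPM in the knockouts. The log2 fold change of Sntb1 was -0.03 (95% interval -0.38 to 0.33, adjusted p 0.935), with a sign that turned in 8 of 21 alternatives, and that of the other beta-syntrophin gene, Sntb2, was -0.06 (adjusted p 0.892). Nos1, the neuronal nitric oxide synthase gene whose protein docks on the syntrophins, was below the filter, with 2, 0, 0, 0 and 0 counts in the heterozygotes and 4, 6, 1, 3 and 0 in the knockouts. Sntg1 had 0 counts throughout, and Drp2, a shorter relative of dystrophin, had at most 8.

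**Figure D3:**
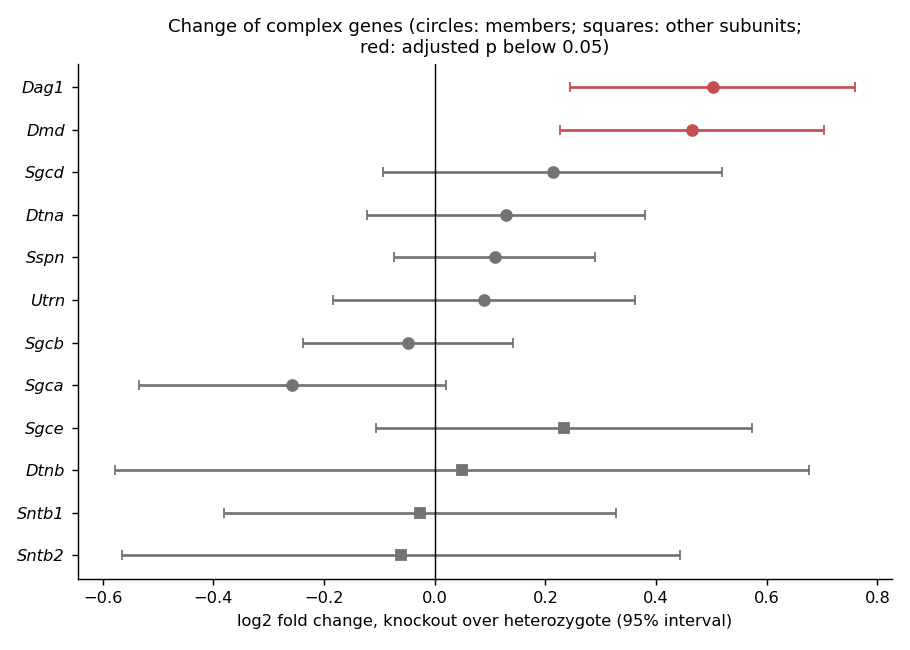
Log2 fold change (knockout over heterozygote) with its 95% interval from the fit over all genes, for the 8 members (circles) and 4 of the 5 tested further subunits (squares), called genes in red. Sntg2, at 4.64, is off this scale and left out. The intervals of Dag1 and Dmd lie above 0, and the other 10 include it.

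Per kilobase of exon, the levels of the members spanned from 3.81 ± 0.676 CPM for Utrn to 141 ± 25.3 CPM for Dag1 in the heterozygotes (SD, n = 5). Between them, the heterozygote means were 127 for Sspn, 92.6 for Sgca, 63.2 for Sgcb, 22.3 for Sgcd, 14.8 for Dtna and 9.24 CPM per kilobase for Dmd. The order was the same in the knockouts, from 4.04 ± 0.478 for Utrn to 200.2 ± 20.1 CPM per kilobase for Dag1. Not all neighbours in this order had separate ranges over the animals. In the heterozygotes, Dag1 and Sspn, Sspn and Sgca, and Sgcd and Dtna overlapped between animals, while in the knockouts only Dtna and Dmd did. Within single animals, only Dag1 and Sspn changed order, with Dag1 over Sspn at 0.925 and 0.964 in heterozygotes 2 and 5. Dag1, at 172 to 222 CPM per kilobase, stood above Sspn, at 129 to 152, in the knockouts. These levels assume that reads cover the counted exons evenly, which was not tested.

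The sugar chains through which dystroglycan binds laminin are built by a series of transferases. Of 18 such genes, 17 were tested, and 0 were called higher and 1 lower, with a median log2 fold change of -0.0608. That is 5.88% of the tested list, beside 18.9% of all tested genes called and 8.64% called lower. B3gnt1 (now B4gat1), which primes the laminin-binding chain, measured 100.2, 112, 99.1, 87.5 and 95.9 CPM in the heterozygotes. The knockouts measured 79.9, 75.3, 83.1, 77.5 and 85.3 CPM, each below every heterozygote (-0.30 ± 0.0866 SE on the log2 scale, adjusted p 0.0244, edgeR). The call was lost without knockout 2 (-0.28, adjusted p 0.0599), without knockout 4 (-0.29, adjusted p 0.0610), with the replicate number as a block (-0.30, adjusted p 0.0574) and with scaling by library totals (-0.22, adjusted p 0.0715). Pomgnt1, the most abundant gene of the list that was not called, was at 209 ± 32.7 and 200.3 ± 15.4 CPM in heterozygotes and knockouts (SD, n = 5; log2 fold change -0.06, adjusted p 0.753). It turned to 0.02 with library totals.

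Of 9 genes for matrix proteins that dystroglycan or the sarcoglycans bind, 8 were tested and 3 were called, all higher, with a list median of 0.314. Over all tested genes 10.2% were called higher, and 23.7% in the longest length bin, which holds Lama2 and Lama5. Lama2, the alpha chain of the muscle laminin (chromosome 10, 26981285 to 27616942), averaged 115 ± 14.7 CPM in the heterozygotes and 169 ± 19.9 CPM in the knockouts (SD, n = 5; 0.56 ± 0.112 SE on the log2 scale, adjusted p 0.00307, edgeR) without overlap. Lamc1, the gamma chain shared by most laminins, went from 245 ± 36.3 to 348 ± 48.1 CPM (0.51, adjusted p 0.00900), also without overlap. Lama5 rose by 0.51 (adjusted p 0.0310), but its groups overlapped and the call was lost in 6 of the 10 fits without 1 animal, those without heterozygote 4 or 5 or knockout 1, 2, 3 or 5 (adjusted p 0.0623 to 0.0663). These are long transcripts, and with the length offsets 1 of the 3 calls remained, that of Lama2, while with the endothelial covariate 0 did, Lama2 then standing at 0.46 (adjusted p 0.0769). Lamb2, the most abundant uncalled gene, was at 602 ± 104 and 650.3 ± 76.8 CPM in heterozygotes and knockouts (log2 fold change 0.11, adjusted p 0.590), and its sign turned with the length offsets (-0.04) and the endothelial covariate (-0.07). Laminins are made by other cell types too. Summed endothelial markers had a lower median in the knockouts (600.2 against 725.5 CPM), with overlapping groups (444.5 to 818 against 713 to 1263 CPM). Fibroblast markers overlapped between the groups as well, and the part of either cell type in the laminin values was not tested.

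Genes of cytoplasmic and membrane proteins that bind the complex included 7 with a larger absolute fold change than any member. Of 15 listed genes, 14 were tested, 6 were called higher and 1 lower, and all 7 had groups that did not overlap, beside 18.9% called and 14.7% not overlapping over all tested genes. These genes were listed with earlier results of these data known. The list median was 0.138. The longest length bin, where 23.7% of genes were called higher, holds Plec, Ank3, Flnc and Synm, and uncalled genes of the list as well. Flnc, which encodes filamin C, an actin crosslinker that binds the sarcoglycans, measured 361, 292.5, 304.5, 208 and 204 CPM in the heterozygotes and 765, 796, 689, 577 and 592 CPM in the knockouts. On the log2 scale the rise was 1.32 ± 0.159 SE (adjusted p 6.00e-05, edgeR). Mapk12, the stress kinase p38 gamma that binds syntrophin, averaged 13.6 ± 3.17 CPM in the heterozygotes and 39.9 ± 7.74 CPM in the knockouts (SD, n = 5; 1.55 on the log2 scale, adjusted p 2.66e-05). Of the 4 intermediate filament genes on the list, 2 were called, both from low levels. Synm, the synemin gene, went from 1.92 ± 0.432 to 7.99 ± 1.93 CPM (2.07, adjusted p 3.85e-05), and Krt8, a keratin gene, from 0.874 ± 0.629 to 5.46 ± 1.61 CPM (2.74, adjusted p 0.000494). Krt8 measured 0.588, 1.35, 1.67, 0.666 and 0.0984 CPM in heterozygotes 1 to 5. It passed the filter on low counts through its knockout levels of 3.97 to 7.51 CPM, so its call is not independent of that filter. Sync, the syncoilin gene, was not called (23.3 ± 3.31 and 21.2 ± 3.70 CPM in heterozygotes and knockouts; log2 fold change -0.14, adjusted p 0.544), and Krt19, with at most 9 counts in a sample, was not tested. Plec, which encodes plectin, a linker between intermediate filaments and the complex, rose from 229 ± 44.5 to 348 ± 33.0 CPM (0.60, adjusted p 0.00475), a call lost with the length offsets (adjusted p 0.0526) and the endothelial covariate (0.112). The remaining gene called higher, Ank3, was outside the naming rule and was named after its values were seen (log2 fold change 0.51, adjusted p 0.00482). With the endothelial covariate, 5 genes of the list were called, Flnc, Mapk12, Synm, Krt8 and Aqp4, so the Ank3 call was lost there too.

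Aqp4 was the gene of this list that fell. It encodes aquaporin-4, a water channel that syntrophin holds at the membrane, and measured 119.6, 71.0, 105, 90.7 and 123 CPM in the heterozygotes. In the knockouts it measured 37.1, 56.4, 39.1, 57.6 and 61.0 CPM, and the highest of these lay below the lowest heterozygote (-1.02 ± 0.172 SE on the log2 scale, adjusted p 0.000959, edgeR). Cav3, the muscle caveolin gene, was the most abundant uncalled gene of the list, at 179 ± 27.8 and 159 ± 13.6 CPM in heterozygotes and knockouts (log2 fold change -0.17, 95% interval -0.41 to 0.06, adjusted p 0.307).

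Genes of membrane repair, which reseal the sarcolemma after tears, were listed as well. Of 8 tested, 1 was called higher and 0 lower, with a median of -0.0772. That is 12.5% of the list, beside 18.9% of all tested genes called and 10.2% called higher. Anxa5, the gene of annexin A5, which binds phosphatidylserine at membrane lesions, measured 108, 119, 134, 164 and 122 CPM in the heterozygotes and 275, 234, 283, 236 and 258 CPM in the knockouts. On the log2 scale the rise was 0.99 ± 0.116 SE (adjusted p 4.63e-05, edgeR), without overlap and called in all 21 alternatives. Anxa6, the most abundant uncalled gene, was at 390 ± 37.1 and 381 ± 17.2 CPM (log2 fold change -0.03, adjusted p 0.845) and turned to 0.05 with library totals.

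**Figure D4:**
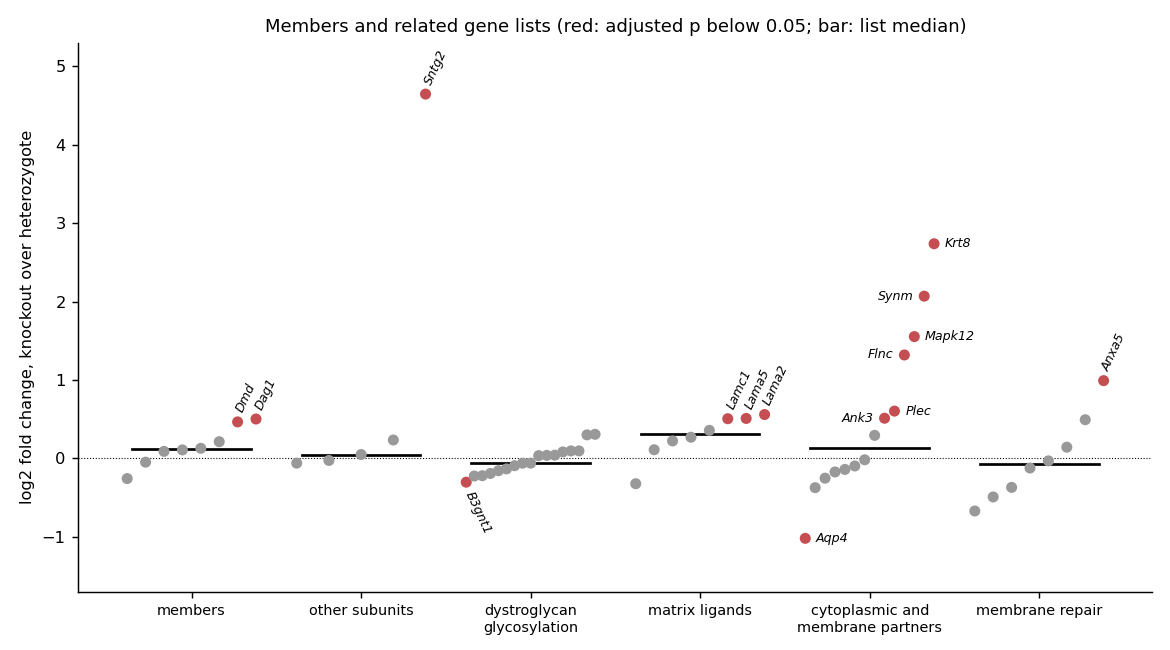
Log2 fold change (knockout over heterozygote) of every tested gene of the members and of 5 related lists, each point 1 gene, called genes in red and named, with a bar at the list median. The members span from -0.26 to 0.50, while the cytoplasmic and membrane partners span from -1.02 to 2.74.

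The tested genes of at least 10 CPM whose pattern over the 10 mice was most like that of a called member were found by the root-mean-square difference of mean-centred log2 CPM. For Dmd, among 8368 genes, these were Mycbp2 (0.101), Ube2h (0.103) and Bag3 (0.107). For Dag1 they were Ppp1r12b (0.0816), Svil (0.0929) and Lama2 (0.0934). All 6 were called higher, with log2 fold changes of 0.43 to 0.59. The difference between the groups is part of this distance, so genes chosen as close to a called member share its rise. Among the members themselves, the closest patterns were those of Dtna and Sspn, which differed by 0.130, and the farthest those of Dag1 and Sgca, by 0.455. Dmd and Dag1 differed by 0.162. Per kilobase, the ratio of Dag1 to Dmd was 15.3 ± 1.37 in the heterozygotes and 15.8 ± 2.23 in the knockouts (SD, n = 5), and that of Dag1 to Sgcb was 2.24 ± 0.370 and 3.28 ± 0.398.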

How the data were processed

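The deposited values are whole-number read counts per gene. The authors made these counts, per the file headers, with featureCounts 1.5.1 (4 threads, no other option) on the UCSC mm10 gene annotation. The submitters' processing notes list STAR 2.5.3a and Subread 1.5.2, while the alignment files carry another aligner's default name, so the aligner is uncertain. By default that counting ignores strand and drops reads shared between genes. Of the columns, 4 match no sample and were not used. Genes were filtered with filterByExpr (minimum count 10, minimum total 15), scaled with TMM and compared with edgeR 4.0.16 (R 4.3.3, quasi-likelihood F test, no covariates, 10 samples). P-values were adjusted over all tested genes by Benjamini and Hochberg's method, and 0.05 was the threshold. Intervals use the fit's standard error and degrees of freedom, and log2 CPM a prior count of 1. Length is the summed exon length that the authors deposited beside the counts. The depth of 8086656 to 25237696 counts puts 3 counts at 0.126 to 0.384 CPM. In the 20 replicate pairs, chi-square over genes was 10.8 to 37.5 times its degrees of freedom, so none was a copy. The labels do not say whether samples share litters or batches. The alternatives were RLE, upper-quartile and library-total scaling, other filters, a replicate block, Y-linked and endothelial covariates, length offsets (20 bins), DESeq2 1.42.0, limma 3.58.1 (voom) and leaving out each animal. Members and lists were chosen with earlier results of these data known. Named were Actn2, the members, in each list up to 6 called genes and the most abundant uncalled one, and the 3 nearest patterns to each called member. Promoters were read from RefSeq for 7 of 8 members, and that of Dtna, on chromosome 18, was not looked up. Further subunits beyond the 9 described are not reported here. Pomgnt2 and Pomk were counted under older symbols.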

Additional observations from a re-analysis of the deposited data

Results flagged for a closer look

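In 62 groups of 5 values (1 gene in 1 genotype, log2 CPM), 5 held an extreme sample separated from its neighbour by more than 0.71 of that group's range. About 3.1 such groups would arise by chance. Dmd was at 212 CPM in knockout 3 against 173 CPM in the next highest (gap 0.734), and its call held without that sample (log2 fold change 0.39, edgeR adjusted p 0.0308). Sntg2 was at 0.0984 CPM in heterozygote 5, a single count, against 0.222 CPM (gap 0.830). Lama5 was at 55.7 CPM in knockout 4 against 72.2 CPM (gap 0.825). Heterozygote 3 was the high sample for Mycbp2, at 45.8 against 34.6 CPM (gap 0.771), and for Bag3, at 269 against 213 CPM (gap 0.785).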

How the results depend on the processing

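Of the 8 members, Sgca, Sgcd and Sspn had the same direction and were not called in the 21 alternatives run, and Actn2 was called lower in all of them. Both called members, Dmd and Dag1, were called whichever animal was left out, and in 9 and 10 of the other 11 settings. With the endothelial covariate 1143 genes were called, 0 of them members (Dmd 0.49, Dag1 0.42), 0 matrix ligands and 2 membrane repair genes. With the length offsets 1 member was called, Dmd fell under the threshold (0.25), Utrn (-0.13) and Dtna (-0.0561) reversed, and 1 matrix ligand and 2 membrane repair genes were called. For these changes the cause was not tested. With library totals alone, 68.9% of the calls were higher, against 54.3% with the TMM factors (1216 of 2241), and Sgcb (0.0302), Pomgnt1 (0.0239) and Anxa6 (0.0524) reversed. Pomgnt1 (-0.118 to 0.0311) and Anxa6 (-0.0724 to 0.0261) also reversed on leaving out heterozygote 2, the upper end of these ranges, the lower being without heterozygote 4. Sntb1 reversed with library totals (0.052), the endothelial covariate (0.115), the length offsets (0.0533) and in 5 fits without 1 animal (range -0.164 to 0.0677). Lamb2 reversed with the endothelial covariate (-0.0716) and the length offsets (-0.0415). A filter at a mean of 5 CPM left out Sntg2, Krt8 and Synm, so 0 further subunits and 5 cytoplasmic and membrane partners (against 7) were called, and the endothelial covariate also left 5 partners. DESeq2 and voom called 3 membrane repair genes each. Without 1 animal, 1 to 3 membrane repair genes (more than 1 without heterozygote 2, 4 or 5) and 0 or 1 glycosylation genes were called. With the replicate number as a block, 2182 genes were called, 2 members among them, and 0 glycosylation and 2 membrane repair genes. The labels give the same numbers in the 2 groups without saying what they share. Correlations of their deviations from the group means were -0.0604 to 0.185 over the 5 pairs, above 0.1 in 3 of them, and 4 of 10 samples correlated best with their own number. Of the 22 other named genes, 9 kept direction and call in all their fits. Sntg2 (13 heterozygote counts in all) and Nos1 are limited by depth.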
